A study of Mus musculus with 6 samples.

Results

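Wnt proteins are secreted lipid-modified signals that act over short distances between neighbouring cells. Porcupine attaches the lipid in the endoplasmic reticulum, and Wntless then carries the loaded ligand to the cell surface. At the receiving cell, Frizzled receptors bind the ligand together with the co-receptors Lrp5 and Lrp6, and beta-catenin is then spared from destruction and enters the nucleus. Wnt7a is known in the nervous system as a signal that reshapes axon terminals and promotes the assembly of synapses. The 10 genes described here cover this route from the sending to the receiving side: the ligands Wnt7a and Wnt7b, the export genes Wls and Porcn, the receptor genes Fzd1, Fzd3, Lrp5, Lrp6 and Ryk, and the effector gene Ctnnb1. They were taken by name from the 31469 rows of the expression table, with 1 row each. They were chosen by their TPM differences between the same wild-type and knockout libraries, so those differences are a description and are given without p-values.

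RNA was sequenced from neurons that express parvalbumin, taken from L4 dorsal root ganglia of C57BL/6 mice at postnatal day 21. One group of 3 libraries was labelled wild-type. The other 3 libraries were labelled as a pvalb-driven knockout of dicer, the enzyme that matures microRNAs. Parvalbumin marks mainly proprioceptors in this ganglion, and a Pvalb driver also acts in other cells that express the gene. The labels do not state which alleles made the knockout, whether wild-type animals carried any of them, or whether each library is 1 animal. Part of the spread within a group may therefore be technical. The unit is TPM, an abundance scaled to transcript length that adds up to the same total in each library and can be compared between genes. TPM keeps no sequencing depth, so the depth behind each value is unknown.

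Neuron and proprioceptor markers were present in every library. The 7 pan-neuronal markers summed to between 17200 and 19300 TPM in wild type and between 16300 and 16500 TPM in knockout, with 0 called lower and 1 higher. Most of each sum came from Snap25. Of 6 proprioceptor markers 4 were called lower, all 6 had knockout values below all wild-type values, and their sum was between 1510 and 1650 TPM in wild type and between 797 and 981 TPM in knockout. Runx3, a transcription factor of proprioceptors, was among the 4 (26.1 against 8.30 TPM, lowest library 5.07 TPM). Dicer1 was at 36.7, 26.0 and 48.7 TPM in wild type against 24.0, 20.8 and 21.8 TPM in knockout libraries, a difference that did not pass (limma adjusted p = 0.104). Xist was at 0.06 TPM or less in replicate 3 of each group and at 22.2 TPM or more in the other 4 libraries. The 3 libraries of a group were therefore not all repeats of 1 source. Among the 13787 rows that averaged 1 TPM or more, limma on log2(TPM + 1) called 3.17% lower and 1.86% higher in knockout libraries, at a Benjamini-Hochberg adjusted p below 0.05. The median difference was -0.05. The groups did not overlap in 17.1% of rows on the lower side and in 11.8% on the higher side.

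Wnt7a was the only Wnt7 ligand detected, and its level in knockout libraries was 8.95 times lower. Its level was 11.1, 18.9 and 8.79 TPM in wild type against 1.17, 0.27 and 2.90 TPM in knockout. The groups did not overlap: the highest knockout value, in replicate 3, was under the lowest wild-type value. Mean levels were 12.9 ± 5.30 against 1.45 ± 1.34 TPM (SD, n = 3). On the log2(TPM + 1) scale the difference was -2.59 (SE 0.44), the 25th lowest of the 13787 rows tested. With a pseudocount of 0.1 in place of 1 it was -3.46 (SE 0.71). The knockout values were low, so the size of the fold is imprecise. Wnt7b, which encodes the closest relative of Wnt7a and can act through the same receptors, was listed at 0 in all 6 libraries. Such a 0 may also arise where an estimate fails on reads shared by similar transcripts, which was not tested for Wnt7b.

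Wls, the gene of the carrier Wntless, was lower as well, by 7.02 times. It was at 43.4, 51.1 and 32.7 TPM in wild type against 5.10, 1.91 and 11.1 TPM in knockout libraries, again without overlap. Its mean was 42.4 ± 9.26 against 6.04 ± 4.67 TPM (SD, n = 3), and the log2 difference of -2.83 (SE 0.44) was the 18th lowest of all rows tested. Wnt7a and Wls followed the same order of libraries in each group, with replicate 2 highest and replicate 3 lowest in wild type, and replicate 3 highest and replicate 2 lowest in knockout.

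Porcn, which encodes the acyltransferase Porcupine that acts before Wntless, did not share this pattern. It was at 43.9, 43.7 and 44.8 TPM in wild type against 47.7, 45.6 and 58.8 TPM in knockout libraries. All 3 knockout values lay above all 3 wild-type values, and most of the gap came from knockout replicate 3. The log2 difference was 0.19 (SE 0.14), and limma did not call it. Wls and Porcn had near equal levels in wild type, with a ratio of Wls to Porcn of 0.99, 1.17 and 0.73 in the 3 libraries. In knockout libraries the ratio was 0.107, 0.0418 and 0.189.

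**Figure D1:**
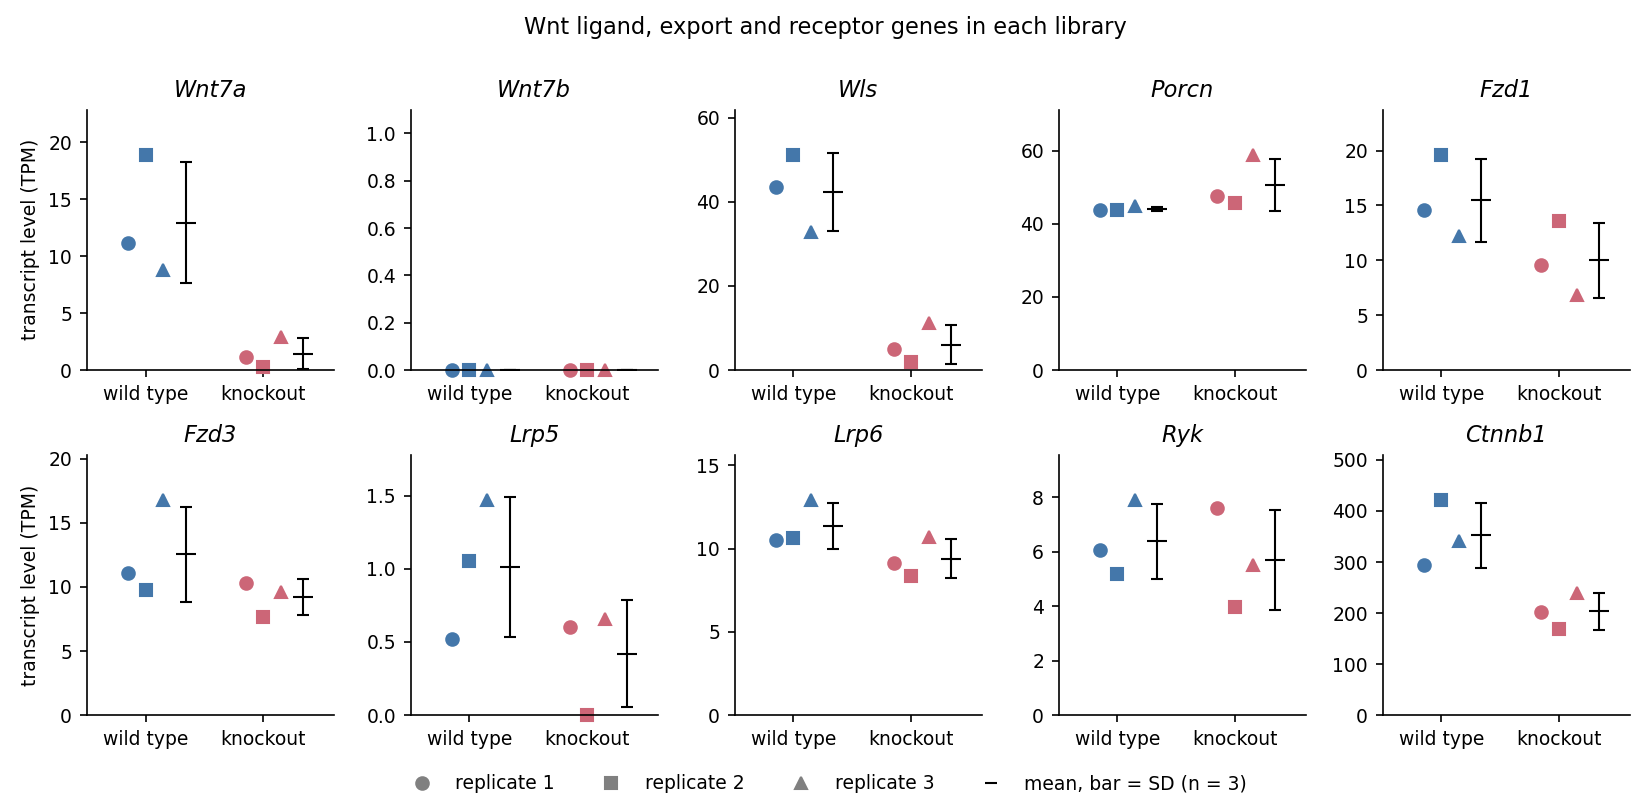
TPM of the 10 Wnt genes in each library, with wild-type libraries in blue and knockout libraries in red, marker shapes for the replicate number, and black bars for mean ± SD (n = 3). Wnt7a, Wls and Ctnnb1 have knockout values below all wild-type values, Porcn has knockout values above them, Wnt7b is at 0 throughout, and the other 5 genes overlap.

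The receptor genes were low to moderate in level, and their groups overlapped. Fzd1, a Frizzled receptor, was at 14.6, 19.6 and 12.2 TPM in wild type against 9.53, 13.6 and 6.84 TPM in knockout libraries. Its log2 difference was -0.61 (SE 0.27), and knockout replicate 2 lay above wild-type replicate 3. Over the alternatives the Fzd1 difference ranged from -1.03 with the satellite glia covariate to -0.39 without knockout replicate 3. Fzd3, a Frizzled receptor known for its role in axon guidance, was at 11.1, 9.79 and 16.8 TPM in wild-type libraries. In knockout libraries Fzd3 was at 10.3, 7.69 and 9.64 TPM, a difference of -0.38 (SE 0.24) with wild-type replicate 3 above the other 5 libraries. The Fzd3 difference was -0.17 without that library and -0.09 with the satellite glia covariate.

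Lrp6 was the main co-receptor transcript of the pair in these cells. Its level was 10.5, 10.6 and 12.9 TPM in wild-type and 9.15, 8.38 and 10.7 TPM in knockout libraries, a log2 difference of -0.25 (SE 0.20). Lrp5 averaged below the minimum of 1 TPM for testing, at 0.52, 1.05 and 1.47 TPM in wild type and 0.60, 0 and 0.66 TPM in knockout. Ryk, an atypical receptor tyrosine kinase that binds Wnt ligands, was at 6.04, 5.18 and 7.89 TPM in wild type and 7.61, 3.98 and 5.49 TPM in knockout. The Ryk groups were interleaved, and the log2 difference of -0.16 (SE 0.28) turned positive without knockout replicate 2 (0.04).

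Ctnnb1, which encodes beta-catenin, a protein of both Wnt signalling and cadherin junctions, had the highest level of the 10 genes and was 1.73 times lower in knockout libraries. It was at 295, 421 and 341 TPM in wild type against 201, 169 and 240 TPM in knockout libraries, without overlap. Its mean was 352 ± 64.0 against 203 ± 35.7 TPM (SD, n = 3), and the log2 difference was -0.79 (SE 0.17). By its rank it stood at the 6.14th percentile of all tested differences, against 0.181 for Wnt7a and 0.131 for Wls.

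By wild-type mean, the order of the other genes below Ctnnb1 was Porcn (44.1), Wls (42.4), Fzd1 (15.5), Wnt7a (12.9), Fzd3 (12.5), Lrp6 (11.4), Ryk (6.37), Lrp5 (1.01 TPM) and Wnt7b. Porcn and Wls overlapped between libraries, as did Fzd1, Wnt7a, Fzd3 and Lrp6 with each other. In knockout libraries Wls was at a mean of 6.04 TPM, near Ryk (5.69), and Wnt7a was at 1.45 TPM, below all members but Lrp5 and Wnt7b.

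Of the 10 genes, 8 reached the minimum level for testing, and limma called 3 of them lower (Wnt7a, Wls and Ctnnb1) and 0 higher. Over all rows 3.17% were called lower and 5.03% in either direction. The groups did not overlap for 3 members on the lower side and 1 on the higher side, against 28.9% of all rows in either direction. Since the genes were chosen with these differences known, nothing is read from the counts. The median difference of the 8 was -0.49, against -0.05 over all rows. The calls are no independent evidence and are given only with the settings that end them. Wnt7a and Wls missed the threshold without knockout replicate 1 (-2.58 for Wnt7a and -2.85 for Wls) and with the level of satellite glia markers as a covariate (-2.52 for each). Ctnnb1 lost its call without wild-type replicates 2 (-0.65) or 3 (-0.81) and without knockout replicates 1 (-0.79) or 2 (-0.66), with the glia covariate (-0.77), and in the 4 libraries that express Xist (-0.93). Entering the replicate number as a block (-0.79) or testing rows without a minimum level (-0.79) also ended the call of Ctnnb1.

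**Figure D2:**
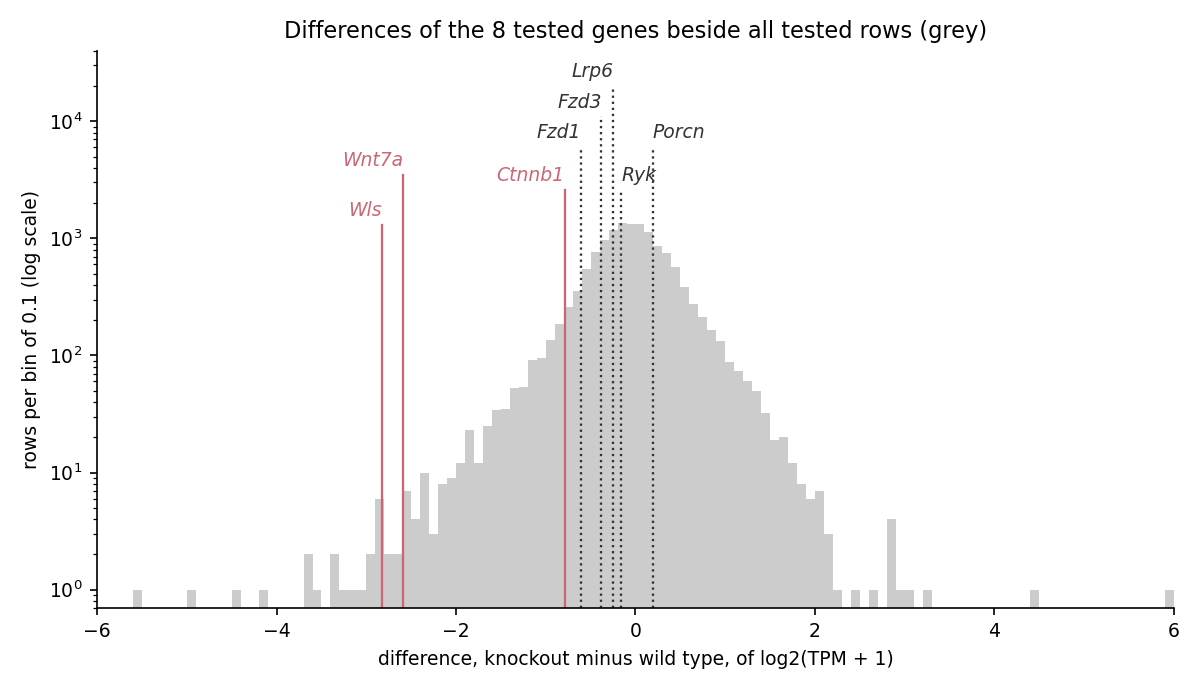
Histogram of the difference in log2(TPM + 1), knockout minus wild type, over all 13787 tested rows (grey, rows on a log axis, the outermost bins also taking any larger difference), with lines at the 8 tested Wnt genes (solid red where limma called the gene, dotted where not). Wls (-2.83) and Wnt7a (-2.59) lie far in the lower tail, Ctnnb1 (-0.79) on its shoulder, and the other 5 within the bulk between -0.61 and 0.19.

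Markers of other cell types were detected in these libraries, and their levels are given beside the lower values of Wnt7a, Wls and Ctnnb1. Of 10 satellite glia markers, 2 were called lower (Fabp7 and Gja1), 0 were called higher (4 lower and 2 higher at an unadjusted p below 0.05), 0 were listed at 0 in every library, and their sum ran from 881 to 1950 TPM in wild-type and from 505 to 1070 TPM in knockout libraries. Glul (0.65) and Cadm2 (0.60) were the 2 markers with the opposite direction, and neither passed (limma adjusted p = 0.105 and 0.153). Within wild type, replicate 2 had the lowest glia sum and the highest Wnt7a, Wls and Ctnnb1. Within knockout, replicate 3 had the highest glia sum and the highest values of the same 3 genes. The glia covariate was the mean log2(TPM + 1) of the 10 markers, Glul and Cadm2 included, and not their sum. With it in the model, the log2 difference was -2.52 in place of -2.59 for Wnt7a, -2.52 in place of -2.83 for Wls and -0.77 in place of -0.79 for Ctnnb1.

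The other marker lists were at much lower sums. Fibroblast markers summed to between 22.9 and 46.0 TPM in wild-type and between 28.3 and 44.0 TPM in knockout libraries, with 0 of 4 tested called by limma and 0 at an unadjusted p below 0.05. Myelinating Schwann cell markers summed to between 12.5 and 24.0 and between 8.94 and 19.3 TPM, with Pmp2 at 0 throughout and 0 of 2 called by limma (1 lower at an unadjusted p below 0.05). Macrophage markers summed to between 6.02 and 8.76 and between 3.57 and 5.43 TPM, mostly from Lyz2, with 0 of 1 called (1 lower at an unadjusted p below 0.05). Endothelial and mural markers summed to between 14.6 and 21.4 and between 19.5 and 31.2 TPM, with Pecam1 at 1.28 TPM or less and Cdh5 at 0.36 TPM or less, and 0 of 3 were called (0 at an unadjusted p below 0.05). Erythroid markers summed to between 3.99 and 20.2 and between 12.5 and 55.6 TPM, nearly all from Hba-a2, with 0 of 1 called (1 higher at an unadjusted p below 0.05). The part of these cells in the Wnt gene differences was not tested.

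Pvalb itself, the marker of the collected cells, was at 25.1, 19.7 and 23.1 TPM in wild type against 4.02, 3.69 and 13.98 TPM in knockout libraries. Knockout replicate 3, with the highest Pvalb of its group, also had the highest Wnt7a, Wls and Ctnnb1. In wild type, replicate 2, with the lowest Pvalb of its group, had the highest values of the same genes. The full wild-type order was the reverse of that of Pvalb only for Ctnnb1, and not for Wnt7a and Wls. In bulk RNA of this kind, fewer cells of a type and less RNA per cell cannot be told apart.

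**Figure D3:**
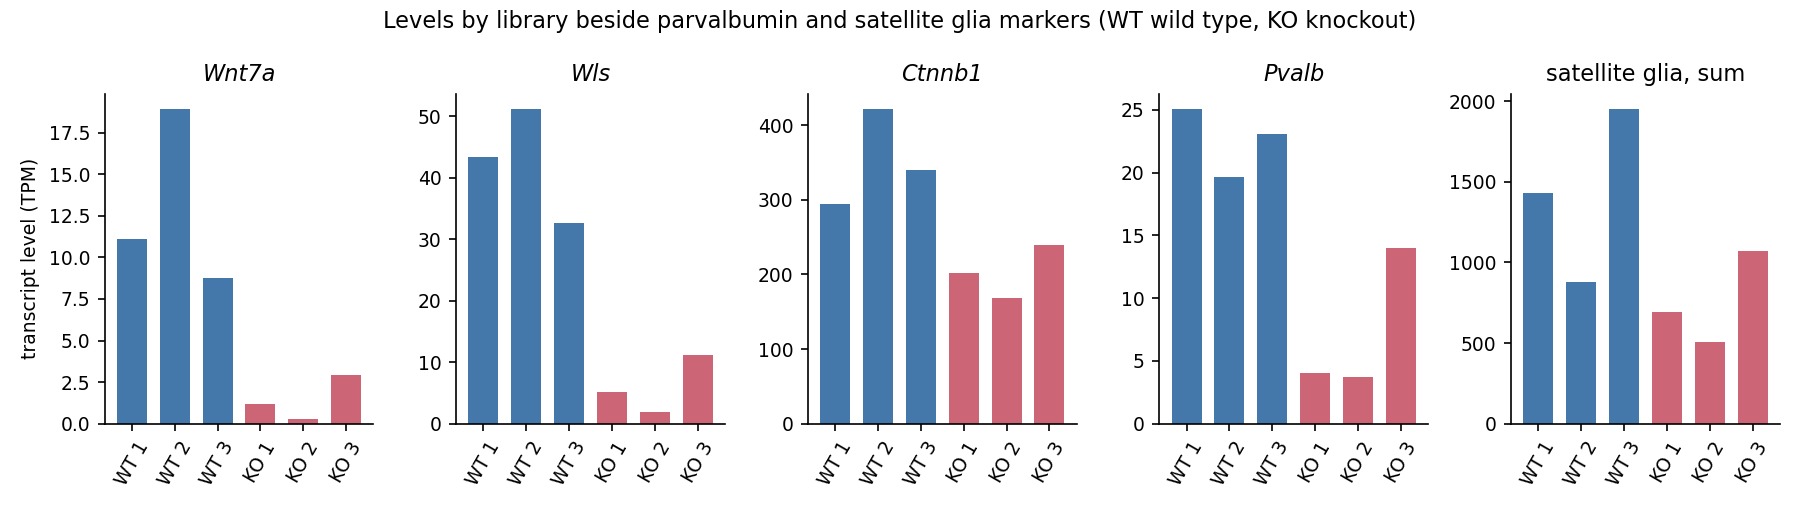
TPM of Wnt7a, Wls, Ctnnb1 and Pvalb and the summed TPM of 10 satellite glia markers in each library, as bars from 0 (blue wild type, red knockout). Wild-type replicate 2 has the highest Wnt7a, Wls and Ctnnb1 of its group and the lowest Pvalb and glia sum (881 TPM). Knockout replicate 3 is highest of its group in all 5 panels.

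Wnt7a (chromosome 6, 91363981 to 91411363, minus strand) and Wls (chromosome 3, 159839672 to 159938664, plus strand; both GENCODE vM21 on GRCm38, protein coding) lie on different chromosomes. Both were lower by a similar factor, and whether they share any control was not tested. The bases just upstream of their RefSeq start sites (GRCm38.p6) are shown, read 5′ to 3′ along the gene's strand. Each GC box (GGGCGG, or CCGCCC on the other strand) is in capitals. The Wnt7a stretch is chr6:91411364-91411603 on the minus strand, 240 bases, and ends where GENCODE starts the gene. The Wls stretch is chr3:159839400-159839649 on the plus strand, 250 bases.
Wnt7a upstream: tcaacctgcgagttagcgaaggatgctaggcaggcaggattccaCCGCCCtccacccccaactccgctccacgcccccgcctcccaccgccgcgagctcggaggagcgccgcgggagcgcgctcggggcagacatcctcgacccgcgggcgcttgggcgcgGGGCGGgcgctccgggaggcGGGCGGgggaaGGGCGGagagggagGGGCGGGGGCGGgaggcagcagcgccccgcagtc
Wls upstream: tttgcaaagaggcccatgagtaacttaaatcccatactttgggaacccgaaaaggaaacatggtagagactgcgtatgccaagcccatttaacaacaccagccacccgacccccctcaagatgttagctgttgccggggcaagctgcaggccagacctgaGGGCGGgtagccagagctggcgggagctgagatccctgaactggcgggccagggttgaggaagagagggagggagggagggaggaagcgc

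The upstream windows differed in composition. Over 250 bases, Wnt7a had a GC content of 77.6% with 34 CpG dinucleotides, and Wls had 58.0% with 8, against medians of 52.4% and 6 over 32851 RefSeq promoter windows. Wnt7a held 5 GC boxes on its own strand and 1 on the other, and Wls held 1. At least 1 GC box was present in 32.7% of all windows. Neither window held the TCF/LEF core CTTTGA (13.8% of all windows on either strand), the RUNX core TGTGGT (14%), the estrogen-related receptor core AAGGTCA (4.08%) or the ETS core CCGGAAG (6.91%). No motif searched contains another, and absence says only that the letters are not in these 250 bases. Of the 10 genes, 5 had a window in the promoter table (Wnt7a, Wls, Fzd1, Ryk and Ctnnb1).

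MicroRNAs pair through their seed, bases 2 to 8, with sites mainly in 3′ UTRs, and the knockout targets the gene of the enzyme that matures them. MicroRNAs themselves were not measured here. The miR-183, miR-96 and miR-182 genes form a cluster that is active in sensory neurons, let-7 is abundant in mature neurons, and miR-9 is known from neural development. Their mature sequences (RefSeq, GRCm38.p6) are shown because their seeds were searched in the Wnt genes, with the seed in capitals.
let-7a-5p: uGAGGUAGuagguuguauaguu
miR-9-5p: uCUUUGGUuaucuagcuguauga
miR-183-5p: uAUGGCACugguagaauucacu
miR-96-5p: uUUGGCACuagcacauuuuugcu
miR-182-5p: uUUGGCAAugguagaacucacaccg

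The 3′ UTRs of Wls (1663 bases), Ctnnb1 (990), Fzd1 (1813), Wnt7b (1948) and Lrp5 (202) held no perfect match to any of the 5 seeds. Wnt7a (1868 bases) held 1 match, to miR-182-5p, 979 bases after the stop codon. Porcn, with a short 3′ UTR of 326 bases, held 1 for miR-96-5p, and Ryk (581 bases) held 1 for miR-96-5p. Lrp6 (4310 bases) held 2, and Fzd3, whose 3′ UTR of 10270 bases is far longer than the median of 1031, held 6. The matches of Wnt7a, Porcn and Lrp6 are shown with 11 bases on each side and the match in capitals.
Wnt7a, miR-182-5p: tggagttctatTTGCCAAgggggccatag
Porcn, miR-96-5p: ccctccttaggGTGCCAActctgatgggg
Lrp6, miR-183-5p: ttttgctgcttGTGCCATaaaagtttgta
Lrp6, miR-182-5p: tggagactgttTTGCCAAgagccatgatt

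Among 11354 tested genes with an annotated 3′ UTR, 11.7% held a match for miR-182-5p, 9.12% for miR-96-5p, 10.1% for miR-183-5p, 9.35% for let-7a-5p and 13.1% for miR-9-5p. A match is a stretch of letters and does not show binding.

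Other genes of the pathway were read from the same fit. Of 109 genes in 9 lists, 108 were in the table and 70 were tested. Limma called 2 higher (2.86%, against 1.86% of all rows) and 0 lower (against 3.17% of all rows). An unadjusted p below 0.05 was reached by 6 higher (8.57%, against 9.77% of all rows) and 10 lower genes (14.3%, against 14.1%). At such shares few calls fall in a short list, so nothing is read from the counts per list. An uncalled gene may still differ. Some uncalled differences were larger than that of Ctnnb1, among them Lgr5 (-1.32), Sfrp5 (-1.20), the secreted inhibitor Frzb (-1.09) and the target Ccn4 (-0.88). The median difference of the 70 was -0.11, against -0.05 over all rows. With median-of-ratios rescaling or a minimum of 5 TPM, 4 were called higher (Tle1, Tle4, Myc and Daam1), and with the replicate block 2 were called lower (Lgr5 and Sfrp5).

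Most other Wnt ligands were barely detected. Of 17, 13 were below 1 TPM on average and 3 were at 0 in every library, and 0 of the 4 tested were called by limma (1 lower at an unadjusted p below 0.05). Wnt5a, a ligand of beta-catenin-independent signalling, was the highest of them, at 7.61, 10.7 and 7.28 TPM in wild-type and 5.56, 5.44 and 5.06 TPM in knockout libraries. Its groups did not overlap, and its log2 difference of -0.57 (SE 0.23) did not pass (limma adjusted p = 0.181). Over all 19 Wnt ligands, Wnt7a made up 39.7%, 48.8% and 36.2% of the summed TPM in wild-type libraries and 7.89%, 1.80% and 16.5% in knockout libraries. The other ligands together were at 16.9, 19.8 and 15.5 TPM in wild type and 13.6, 14.8 and 14.6 TPM in knockout.

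The genes that recycle Wntless from endosomes were abundant, and 0 of 5 were called by limma (2 higher at an unadjusted p below 0.05). Vps29, a retromer subunit, was the highest, at 306, 247 and 209 TPM in wild type and 297, 311 and 301 TPM in knockout. Vps35, the retromer core, was at 150, 151 and 162 TPM in wild type and 205, 219 and 184 TPM in knockout, 0.39 higher on the log2 scale (limma adjusted p = 0.0743). The list's median difference was 0.26.

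Of the other receptors and co-receptors, 8 of 14 were below 1 TPM and 0 of 6 tested were called by limma (0 at an unadjusted p below 0.05). The highest was Ptk7, a pseudokinase of planar polarity, at 8.03, 7.57 and 11.6 TPM in wild type and 9.24, 8.51 and 10.1 TPM in knockout. Over the 10 Frizzled genes the summed TPM was 36.5, 42.5 and 40.1 in wild-type and 32.4, 27.8 and 26.6 in knockout libraries. Fzd1 and Fzd3 made up between 61.3% and 76.6% of it. Reck and Adgra2, which form the receptor complex that recognises Wnt7 ligands in brain blood vessels, were low. Reck was at 2.05, 1.04 and 4.66 TPM in wild type against 3.74, 1.55 and 1.31 TPM in knockout, with overlap. Adgra2 averaged below 1 TPM and was not tested. It was at 2.09, 0.83 and 0.90 TPM in wild type against 0.51, 0.23 and 0.26 TPM in knockout, without overlap.

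None of the 8 tested secreted and surface inhibitors was called by limma (2 lower at an unadjusted p below 0.05). Sfrp1, a secreted Frizzled-like decoy, was the highest, at 30.4, 31.2 and 41.1 TPM in wild type and 33.04, 46.8 and 19.7 TPM in knockout. Of 5 tested genes of the R-spondin axis, 0 were called by limma (1 lower at an unadjusted p below 0.05). Its highest member was Lgr4, an R-spondin receptor, at 16.6, 9.38 and 25.8 TPM in wild type and 14.6, 10.9 and 16.7 TPM in knockout.

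Genes that act on beta-catenin in the cytoplasm ranged widely in level. Wild-type means ran from 2.61 TPM for Dvl2 to 392 TPM for Gsk3b, the kinase that marks beta-catenin for destruction. Gsk3b was at 386, 385 and 406 TPM in wild type and 322, 341 and 344 TPM in knockout. Of 15 tested genes of Dishevelled and the destruction complex, 0 were called by limma, with 3 lower at an unadjusted p below 0.05 and a median difference of -0.20. The Gsk3b groups did not overlap, and its difference of -0.22 did not pass (limma adjusted p = 0.192). In the planar polarity list, 0 of 10 were called (1 in each direction at an unadjusted p below 0.05). Daam1, a formin that binds Dishevelled, was its highest member, at 78.7, 75.5 and 91.0 TPM in wild type and 114, 109 and 114 TPM in knockout (difference 0.46, limma adjusted p = 0.0554).

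The called genes were Tle1, from the list of nuclear partners, and Myc, from the list of Wnt targets. Tle1, a Groucho-type co-repressor that binds TCF factors, rose from 22.4 ± 2.51 to 36.2 ± 4.81 TPM (SD, n = 3; log2 difference 0.67, SE 0.16, limma adjusted p = 0.0481). It was at 20.1, 21.9 and 25.1 TPM in wild type and 41.7, 34.2 and 32.7 TPM in knockout, without overlap. The call was lost in 11 of 13 alternatives, including the omission of any single library, with adjusted p from 0.0278 to 0.166. Tle1 was the only call among 11 tested nuclear partners (1 lower and 2 higher at an unadjusted p below 0.05).

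Myc, a growth-promoting transcription factor that is a target of Wnt signalling and of many other pathways, rose from 10.4 ± 1.08 to 23.0 ± 5.65 TPM (log2 difference 1.05, SE 0.22, limma adjusted p = 0.0292). It was at 11.2, 9.14 and 10.8 TPM in wild type and at 23.7, 28.3 and 17.03 TPM in knockout. The call was lost in 7 of 13 alternatives: when wild-type replicate 2 or 3, or knockout replicate 1 or 2, was left out, without a filter, with the satellite glia covariate and in replicates 1 and 2 only (adjusted p from 0.0223 to 0.112 over 13 alternatives). The other 5 tested targets were not called by limma (1 lower at an unadjusted p below 0.05). That one was Ccn4, a matricellular protein gene, at 9.72, 7.61 and 7.52 TPM in wild type against 3.32, 4.37 and 4.40 TPM in knockout, without overlap (difference -0.88, limma adjusted p = 0.0671). Axin2, the most general feedback target of beta-catenin, was at 3.30, 2.28 and 2.48 TPM in wild type and at 2.91, 2.14 and 2.61 TPM in knockout. The Axin2 groups overlapped, and the difference was -0.05 (SE 0.29, limma adjusted p = 0.941).

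**Figure D4:**
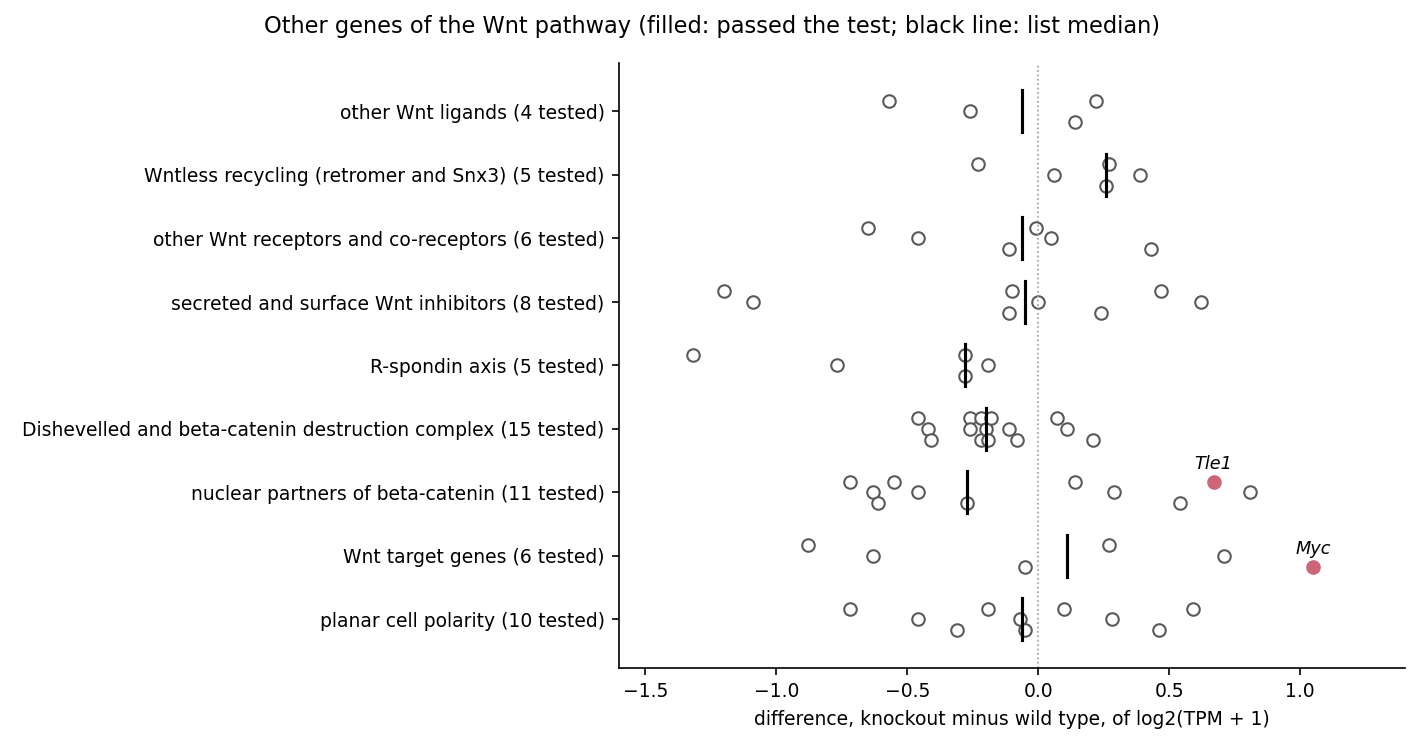
Difference in log2(TPM + 1), knockout minus wild type, of each tested gene in 9 lists of other Wnt pathway genes (open circles not called, filled circles called by limma, black lines the list medians). Tle1 (0.67) and Myc (1.05) are the 2 filled points, and the list medians lie between -0.28 and 0.26.

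The genes whose level followed Wnt7a and Wls most closely were outside the Wnt lists. Likeness was the Pearson correlation of log2(TPM + 1) over the 6 libraries among 9354 rows that averaged 5 TPM or more, and it mostly reflects the difference between the groups. For Wnt7a the 5 nearest rows were Agpat5 (0.998), Slc35g2 (0.998), Rcn2 (0.997), Rcbtb1 (0.997) and Hipk3 (0.996), and Wls came 12th (0.992). For Wls they were Rcbtb1 (0.998), Slc35g2 (0.997), Fam189a1 (0.997), Stx7 (0.996) and Pgf (0.996), and Wnt7a came 11th. A high correlation does not mean a change of equal size. The log2 differences of the nearest rows ran from -0.28 for Hipk3 to -2.18 for Pgf, against -2.59 for Wnt7a and -2.83 for Wls. Rcbtb1 was at 142, 163 and 132 TPM in wild type and 67.1, 50.4 and 84.5 TPM in knockout, with the order of libraries that Wnt7a and Wls had. Slc35g2, on both lists, was at 21.1, 24.7 and 19.3 TPM in wild type and 9.23, 6.82 and 12.02 TPM in knockout. Ctnnb1 correlated at 0.975 with Wnt7a, while Lrp6 (0.735), Fzd1 (0.530), Fzd3 (0.519), Ryk (0.269) and Porcn (-0.369) followed it less closely.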

How the data were processed

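The authors deposited 1 table of TPM values with a column per library, and RSEM 1.2.7, Bowtie2, cutadapt and the mm10 build are named, with no order, per the submitters' processing notes. For the gene annotation, the version is not given in these sources. Per the labels' protocols, PicoPure RNA was amplified with an Ovation kit, which can add noise to rare transcripts. A rise of abundant transcripts lowers the TPM of others.

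A name with several rows was represented by its highest-mean row. Of the pathway genes, 2 were matched by synonym (Adgra2 as Gpr124, Ccn4 as Wisp1), and Tnks was not found by name. Differences are knockout minus wild type from limma 3.58.1 in R 4.3.3, fitted to log2(TPM + 1) of rows averaging 1 TPM or more with a mean-variance trend, two-sided tests and Benjamini-Hochberg adjustment over 13787 rows at 0.05. These differences understate changes of low genes. An exact permutation test of 3 against 3 cannot go below p = 0.1, so none was run. Simulated data were used to test the fit.

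The members, lists, motifs and microRNAs were chosen with earlier results of these data known. Named genes were all members, the called and the highest gene of each pathway list, and the 5 rows most like Wnt7a and Wls (leaving out Gm, Rik and uc names); others (Vps35, Reck, Adgra2, Axin2, Ccn4, Frzb, Lgr5, Sfrp5, Tle4, Glul, Cadm2) were added after their values were seen. The 3′ UTRs came from the GENCODE vM21 coding transcript with the longest coding sequence. Alternatives changed the pseudocount, filter, scaling, covariate or libraries.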

Additional observations from a re-analysis of the deposited data

How the results depend on the processing

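The 13 alternatives kept the direction of the differences of Wnt7a, Wls, Porcn, Fzd1, Fzd3, Lrp6 and Ctnnb1, which ranged from -3.46 to -2.20 for Wnt7a, from -3.51 to -2.31 for Wls, from -0.93 to -0.65 for Ctnnb1, from -1.03 to -0.39 for Fzd1, from -0.53 to -0.09 for Fzd3, from -0.34 to -0.10 for Lrp6 and from 0.08 to 0.29 for Porcn. Ryk turned to 0.10 with the satellite glia covariate and ranged from -0.36 to 0.04 with 1 library left out, the latter without knockout replicate 2. Of the members, 0 were called lower with that covariate, and 0 to 3 when 1 library was left out. Over all rows, the counts higher and lower went from 256 and 437 to 130 and 248 without a filter, to 103 and 139 with the glia covariate and to 65 and 139 in replicates 1 and 2 of each group. Leaving out 1 library gave 48 to 348 higher and 116 to 487 lower. With median-of-ratios rescaling, rises were 49.3% of calls in place of 36.9%. Of the other pathway genes, 2 called higher became 1 at a pseudocount of 0.1, 0 without a filter, 4 at a minimum of 5 TPM, 4 with rescaling, 1 with the glia covariate (Tle4, with Tle1 and Myc both lost), 0 in replicates 1 and 2 only, and 0 to 1 with 1 library left out (Tle4 without wild-type replicate 3, Myc in the other single calls). With the replicate block, 1 was higher and 2 were lower. Same-numbered libraries correlated in their deviations from the group means at 0.05, 0.07 and 0.04, and differently numbered ones at -0.1 to 0.07. Xist was near 0 only in replicate 3 of each group. Whether the numbers pair the samples is therefore not settled, and the main fit was unpaired. Under the block all-row counts were 188 and 341. The causes were not tested. Depth is unknown, so low values such as those of Lrp5, and of Wnt7a in knockout libraries, carry no interval.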
